A study of Mus musculus with 6 samples.

Results

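The proteasome is the barrel-shaped protease that breaks down proteins tagged with ubiquitin. Its core particle stacks rings of alpha subunits, which form the gate, around rings of beta subunits, which include the proteolytic sites. A cap of ATPase and non-ATPase subunits binds, unfolds and feeds substrates into the core, and other activators can take the place of the cap. In neurons proteasomes are known to act at synapses, where protein turnover accompanies plasticity, and in cells exposed to interferon alternative beta subunits replace the catalytic ones.

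The genes described are those whose array probe sets carry a single symbol beginning with Psma, Psmb, Psmc, Psmd, Psme or Psmf. They numbered 45 genes on 95 probe sets, of 18193 genes with 1 symbol on 45037 probe sets in all, and each gene was read from its brightest probe set. The symbols took in 7 alpha ring genes, 7 beta ring genes, 3 immunoproteasome genes, 6 cap ATPases, 11 cap non-ATPases, 3 assembly factors of the cap, and 4 activators or inhibitors. The testis alpha subunit Psma8 and the thymus beta subunit Psmb11 read below the level of 50 set for testing. Psmc3ip, a factor of meiotic recombination, and Psme3ip1, a partner of the activator Psme3, share only the start of the symbol and are not subunits. The probe set of the activator Psme2 also carries the symbol Psme2b and was left out by the rule.

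The RNA came from ribosomes purified out of the cerebral cortex of S100a10 bacTRAP mice (line ES691), in which cells that use the S100a10 promoter make a tagged ribosomal protein. In the fluoxetine group, 3 samples came from mice that drank 0.167 mg/ml of this serotonin reuptake inhibitor with 1% saccharine. In the vehicle group, 3 samples came from mice that drank 1% saccharine alone. Treatment lasted 15 to 18 days in both groups, and all mice carried the transgene on a C57BL/6 background reached from FVB by 3 to 5 generations of backcrossing. The labels give no age or sex and do not say whether a sample pooled animals, so p-values measure the spread between these samples. According to the submitters the transgene also labels some cells that are not neurons, and they advise a published list of probe sets, not used here.

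The array medians over all probe sets lay between 47.3 and 48.6 in intensity, near the level of 50. Over the tested probe sets the medians ran from 8.99 in log2 (fluoxetine 2) to 9.20 (vehicle 2). S100a10 read 15.09, 15.17 and 14.98 in log2 on the fluoxetine arrays, against 15.07, 15.22 and 15.17 on the vehicle arrays, so its groups overlapped. All 5 markers of pyramidal neurons and all 6 available markers of layer 5 passed the level of 50, as did 9 of 9 astrocyte markers, while 6 of 10 microglia markers did. All 6 markers of inhibitory neurons and all 6 of meninges and fibroblasts passed too. Of the available markers, 5 of 7 for endothelium and 4 of 5 for oligodendrocytes passed. The astrocyte marker Gfap passed only through the fluoxetine group, at intensities of 4484, 22.5 and 519, against 26.1, 37.8 and 50.8 on the vehicle arrays (limma unadjusted p = 0.0853, adjusted p = 0.999). In such samples fewer cells of a type and less RNA per cell cannot be told apart.

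The core particle has catalytic genes that exchange, and the upstream sequences of such a pair are shown here because their regulation is known to differ. The factor Nfe2l1 is known to raise proteasome genes through antioxidant response elements, and interferon gamma is known to act through gamma-activated sites. Capitals mark the searched motif, TGACNNNGC for the first element and TTCNNNGAA for the second, looked for on both strands of RefSeq windows (GRCm38.p6) of 250 bases before to 50 after each gene start. Psmb5 lies on the minus strand (chr14:54618018-54618058) and Psmb8 on the plus strand (chr17:34198082-34198122). For comparison, the cap ATPase Psmc6 (plus strand, chr14:45329581-45329621) holds the first element on its opposite strand, and the assembly factor Psmd9 (plus strand, chr5:123228143-123228183) holds it on its own.
Psmb5: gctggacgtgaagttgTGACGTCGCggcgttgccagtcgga
Psmb8: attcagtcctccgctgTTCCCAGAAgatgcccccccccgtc
Psmc6: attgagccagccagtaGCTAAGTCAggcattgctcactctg
Psmd9: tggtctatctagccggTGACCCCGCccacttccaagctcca

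Of the 43 subunit, assembly and activator genes, Psma8 and Psmb11 included, 36 had a window, and 6 of these (16.7%) held the antioxidant element, against 14.0% of the windows of all 27025 genes. The gamma-activated motif was in 2 of the 36 (5.56%, against 9.55%), namely Psmb8 and the cap subunit Psmd2. A CCAAT box (CCAAT), the site of the factor NF-Y, was in 14 of the 36 (38.9%, against 41.1%), of which 5 were among the 7 alpha ring genes. None of these shares says whether a factor binds.

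Fluoxetine was compared with vehicle to ask whether prolonged treatment changed the translated RNA of the proteasome. No proteasome gene passed the test in either direction. All 41 tested subunit, assembly and activator genes had groups that overlapped, and their fold changes lay between 0.881 and 1.12. By limma, 0 of the 41 passed an adjusted p of 0.05 over all 22326 probe sets tested (background 0.0%), and 0 had an unadjusted p under 0.05, against 2.66% of the 12248 tested genes (1.95% lower and 0.71% higher). Groups that do not overlap were likewise found for 0 of 41, against 8.31% of all tested genes (5.99% lower and 2.32% higher). The smallest unadjusted p was 0.198, and every member had an adjusted p of 0.999.

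The intervals show what size of change these arrays left room for. In 36 of the 41 genes (87.8%), the 95% interval of the difference lay wholly within 0.5 of 0 on the log2 scale, that is within 1.41-fold either way, against 55.5% of all tested genes. The standard error had a median of 0.13 in log2 for the members and 0.15 for all tested genes. The members were also brighter. They averaged 12.54 in log2 with fluoxetine and 12.58 with vehicle, against 9.74 and 9.80 for all tested genes. The part of brightness in the narrower intervals was not tested. The 5 genes with wider intervals, named after their values were seen, were Psmb8, Psmb9, Psmd7, Psmd9 and Psme4. Of 18 genes with more than 1 tested probe set, Psmc3ip among them, 6 had another probe set on the other side of 0 (Psma6, Psmb3, Psmd4, Psmd11, Psmd13 and Psme4), and 0 of the 70 tested probe sets of all 43 tested genes had an unadjusted p under 0.05 by limma.

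**Figure D1:**
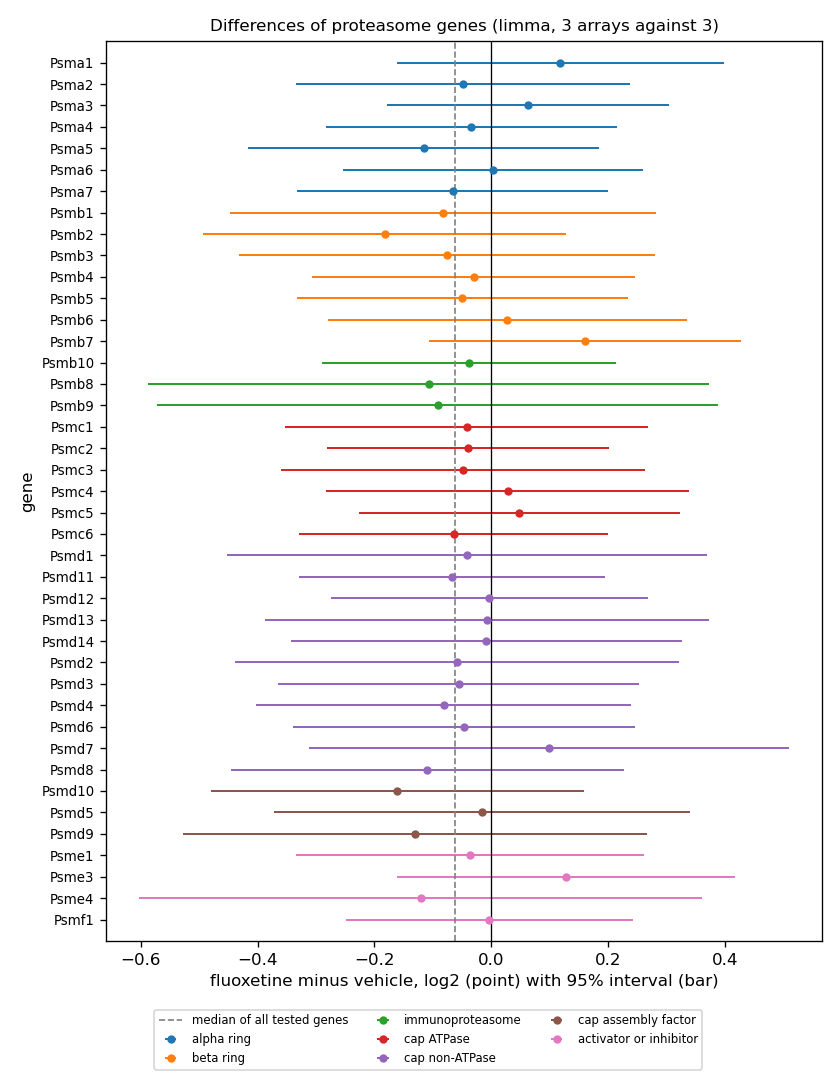
Difference of each proteasome gene, fluoxetine minus vehicle in log2 (horizontal axis), with its 95% interval from limma, by class (3 arrays against 3). Every interval spans 0, the points lie between −0.18 and 0.16, and the dashed line is the median of all tested genes at −0.06.

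On the deposited scale the members leaned in the same direction as most tested genes. Of the 41, 32 were lower with fluoxetine (78.0%), with a median of −0.04 in log2, while 68.5% of all tested genes were lower, with a median of −0.06. That lean depended on the scaling: 16 of the 41 were lower after quantile normalization (all genes, 50.8%) and 14 after a shift of the arrays to a common median (all genes, 50.6%). It also depended on 1 array, since without fluoxetine 2 only 18 were lower (43.9%, against 57.2% of all genes). Without vehicle 2 the count was 23 (56.1%, against 58.8%).

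The medians of core, cap and activators were small. The core particle had a median difference of −0.04 over 14 genes, 9 lower and 5 higher, and the cap had one of −0.04 over 17 genes, 14 lower and 3 higher. The activators and the inhibitor had a median of −0.02 over 4 genes, 3 lower and 1 higher. Either rescaling, by quantiles or by the median shift, turned the cap median to 0.02. The core median became 0.00027 by quantiles and 0.02 by the shift, and the activator median became 0.05 by quantiles and 0.04 by the shift. These medians are descriptions, with no test of one class against another.

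The arrays of the fluoxetine group differed among themselves. Over all tested genes, the fluoxetine arrays averaged 9.79, 9.70 and 9.75 in log2 and the vehicle arrays 9.76, 9.87 and 9.77. For genes in general, fluoxetine 2 was thus lowest and vehicle 2 highest. Averaged over the 11 cap non-ATPases, the fluoxetine arrays read 12.76, 12.46 and 12.64 in log2 and the vehicle arrays 12.63, 12.73 and 12.61. Fluoxetine 1 and fluoxetine 2 were therefore the ends of the range, with all vehicle arrays between them. The 7 beta ring genes averaged 13.65, 13.44 and 13.48 on the fluoxetine arrays, against 13.48, 13.60 and 13.57 on the vehicle arrays, again with fluoxetine 1 highest and fluoxetine 2 lowest.

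Counted gene by gene, fluoxetine 2 gave the lowest value of 21 of the 41 genes (51.2%), against 32.3% of all tested genes. In the cap this held for 11 of 17. Fluoxetine 1 gave the highest value of 19 of the 41 (46.3%, against 25.6% of all tested genes) and of 9 of the 17 cap genes. Some lists of cell markers also differed between these arrays, not all in the same way. In log2 averages, the 6 tested microglia markers were lowest on fluoxetine 1 (8.05). The 5 pyramidal neuron markers were highest on fluoxetine 2 (10.86). The 9 astrocyte markers averaged 12.29, 10.92 and 11.78 in log2 on the fluoxetine arrays, against 11.10, 11.27 and 11.27 on the vehicle arrays. This average was highest on fluoxetine 1 and lowest on fluoxetine 2. It includes Gfap, which passed only through the fluoxetine group and varied far more, at 12.13, 4.49 and 9.02 against 4.70, 5.24 and 5.67. Aqp4, Aldh1l1 and Aldoc had the same highest and lowest arrays. Slc1a3 shared only the lowest, and Gja1, Glul, Slc1a2 and Gjb6 shared neither. The 4 tested oligodendrocyte markers averaged 10.55, 9.93 and 10.59 with fluoxetine and 10.48, 10.56 and 10.51 with vehicle, with fluoxetine 2 lowest. The 6 markers of meninges and fibroblasts were highest on fluoxetine 1 (11.06) and lowest on vehicle 1 (10.40). The nuclear and non-coding RNA list, kept as a sign of RNA quality, averaged 7.19, 7.96 and 7.92 on the fluoxetine arrays, against 8.28, 8.12 and 7.32 on the vehicle arrays, so fluoxetine 1 was lowest there and fluoxetine 2 was not set apart. The part of these cells or of RNA quality in the array pattern of the proteasome genes was not tested.

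**Figure D2:**
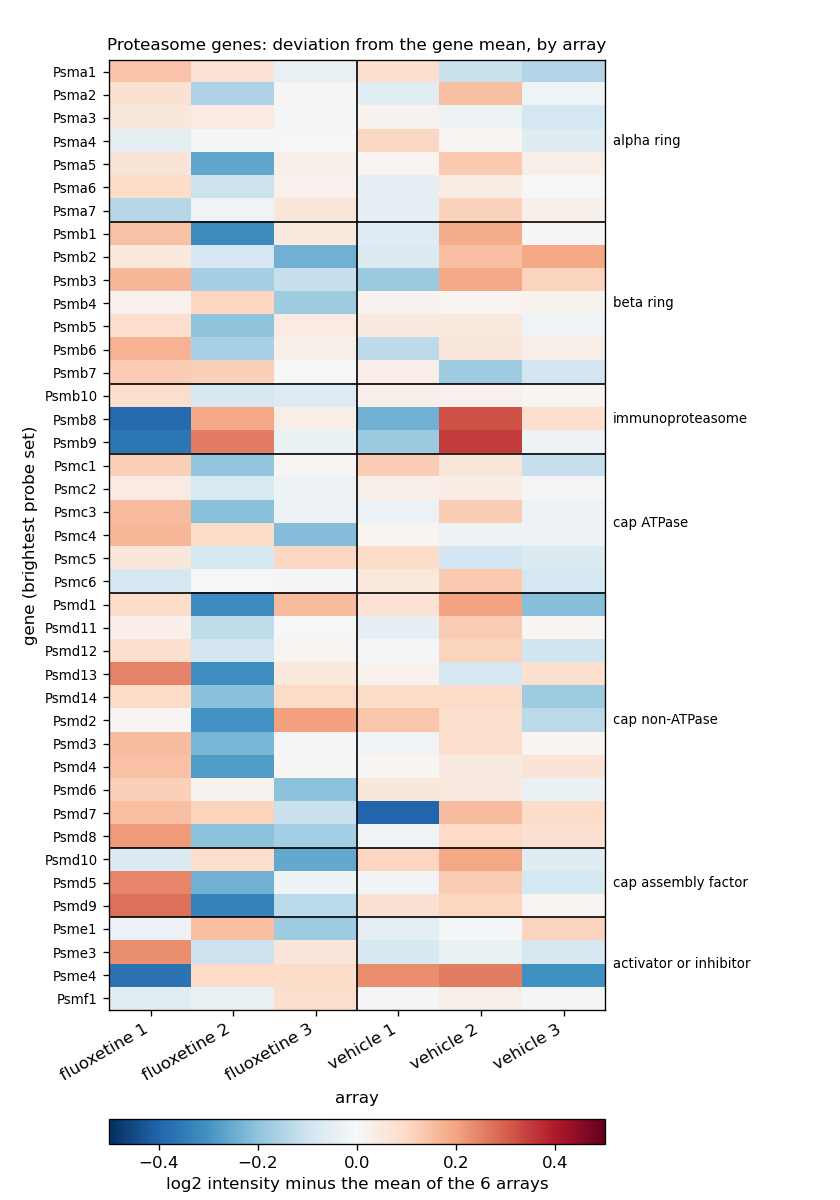
Deviation of each of the 41 proteasome genes from its mean over the 6 arrays, in log2 (colour), with arrays in columns and classes separated by lines. Fluoxetine 2 is the lowest array for 21 genes and fluoxetine 1 the highest for 19. Other genes run differently: 5 are lowest on fluoxetine 1, Psmb8 and Psmb9 among them, and 14 are highest on vehicle 2.

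**Figure D3:**
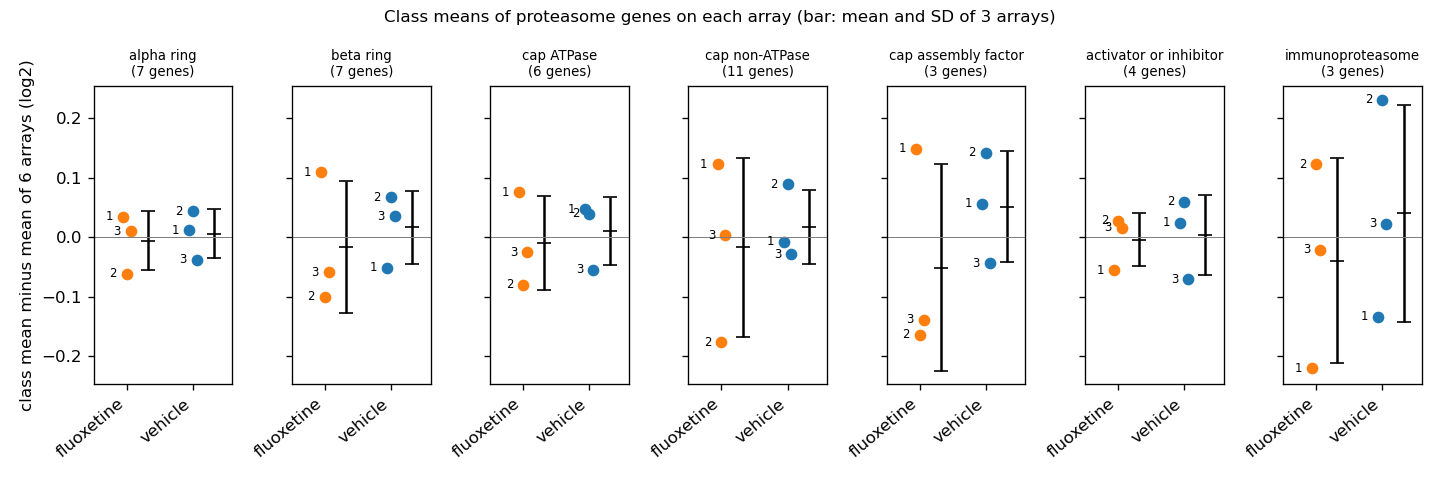
Mean of each class on each array, in log2 relative to its mean over the 6 arrays, with arrays numbered by replicate and bars for the mean and SD of 3 arrays. The groups overlap in all 7 panels, and the cap non-ATPases span 12.46 (fluoxetine 2) to 12.76 (fluoxetine 1) before centring.

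In the alpha ring, 4 genes were lower and 3 higher, with differences between −0.12 and 0.12. Psma1, an alpha ring subunit, measured 13.25, 13.18 and 13.07 in log2 on the fluoxetine arrays, against 13.19, 13.001 and 12.96 on the vehicle arrays. Its difference was 0.12 ± 0.12 (SE, limma adjusted p = 0.999), and vehicle 1 lay within the fluoxetine range. Psma5, another alpha ring subunit, read 14.45, 14.13 and 14.41 with fluoxetine and 14.40, 14.52 and 14.42 with vehicle. Fluoxetine 2 alone was low there, and a second tested probe set differed by −0.13, close to the −0.12 of the first.

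The catalytic beta subunits showed no common direction. Psmb5, which carries the chymotrypsin-like site, measured 14.55, 14.27 and 14.51 on the fluoxetine arrays, against 14.51, 14.52 and 14.45 on the vehicle arrays. The difference of −0.05 ± 0.12 (SE) had a 95% interval of −0.33 to 0.23, and only fluoxetine 2 lay below the vehicle range. Psmb6, with the caspase-like site, read 14.35, 14.01 and 14.20 with fluoxetine and 14.04, 14.23 and 14.21 with vehicle (difference 0.03 ± 0.13), so its fluoxetine arrays enclosed the vehicle arrays.

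Psmb7, with the trypsin-like site, gave the highest difference of the 41 genes. It read 12.15, 12.15 and 12.03 on the fluoxetine arrays, against 12.06, 11.85 and 11.93 on the vehicle arrays, a difference of 0.16 ± 0.11 (SE, limma unadjusted p = 0.198, adjusted p = 0.999). Vehicle 1 exceeded fluoxetine 3, and leaving out single arrays gave 0.11 to 0.22. The lowest difference was also in the beta ring, in the non-catalytic subunit Psmb2, at 10.77, 10.64 and 10.48 with fluoxetine and 10.65, 10.87 and 10.92 with vehicle. There fluoxetine 1 was above vehicle 1, and the difference was −0.18 ± 0.13 (unadjusted p = 0.209).

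The immunoproteasome genes encode the subunits that replace Psmb5, Psmb6 and Psmb7, and none of the 3 passed the test. Psmb8 read 7.31, 7.90 and 7.74 in log2 on the fluoxetine arrays, against 7.46, 8.02 and 7.79 on the vehicle arrays. Psmb9 measured 7.59, 8.21 and 7.92 on the fluoxetine arrays, against 7.77, 8.30 and 7.93 on the vehicle arrays. Both genes, which lie close together in the major histocompatibility complex, put the 6 arrays in the same order: fluoxetine 1, vehicle 1, fluoxetine 3, vehicle 3, fluoxetine 2, vehicle 2.

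Of the 12248 tested genes, 31 (0.253%) had that order, counted after it was seen in Psmb8. The differences were −0.11 ± 0.20 for Psmb8 and −0.09 ± 0.20 for Psmb9 (SE), with 95% intervals of −0.59 to 0.37 and −0.57 to 0.39. Without fluoxetine 1 they were 0.06 for both genes, and without vehicle 2 they were 0.03 and 0.06. Between arrays of the same replicate number, Psmb8 differed by −0.15, −0.12 and −0.05 and Psmb9 by −0.17, −0.10 and −0.01. Across all tested probe sets, arrays of the same number did not deviate together, and whether the samples were paired is not known. Psmb10 read 11.35, 11.18 and 11.20 with fluoxetine and 11.29, 11.29 and 11.27 with vehicle (difference −0.04 ± 0.11), a narrow range in which the order of Psmb8 did not recur.

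Immunoproteasome genes are known to be well expressed in microglia, so that cell type's markers are given beside them. Tyrobp, an adaptor of microglial receptors, had the same array order as Psmb8, at 6.91, 8.11 and 8.03 on the fluoxetine arrays, against 7.38, 8.48 and 8.10 on the vehicle arrays. It was the only one of the 6 tested microglia markers with that order. Tyrobp and Ctss were also the only 2 of the 6 that read lower with fluoxetine (differences −0.30 and −0.12), while Cx3cr1, Csf1r, C1qa and C1qb read higher by 0.21, 0.06, 0.24 and 0.18, for a list median of 0.12, and none passed. Ctss, a lysosomal protease of microglia, was lowest on fluoxetine 1 and vehicle 1 too, at 10.47 and 11.06. The summed intensity of all 10 markers ranged from 2915 to 5351 on the fluoxetine arrays and from 3513 to 4471 on the vehicle arrays. Trem2, P2ry12, C1qc and Aif1 lay below the level of 50, and the part of microglia in the array order was not tested.

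**Figure D4:**
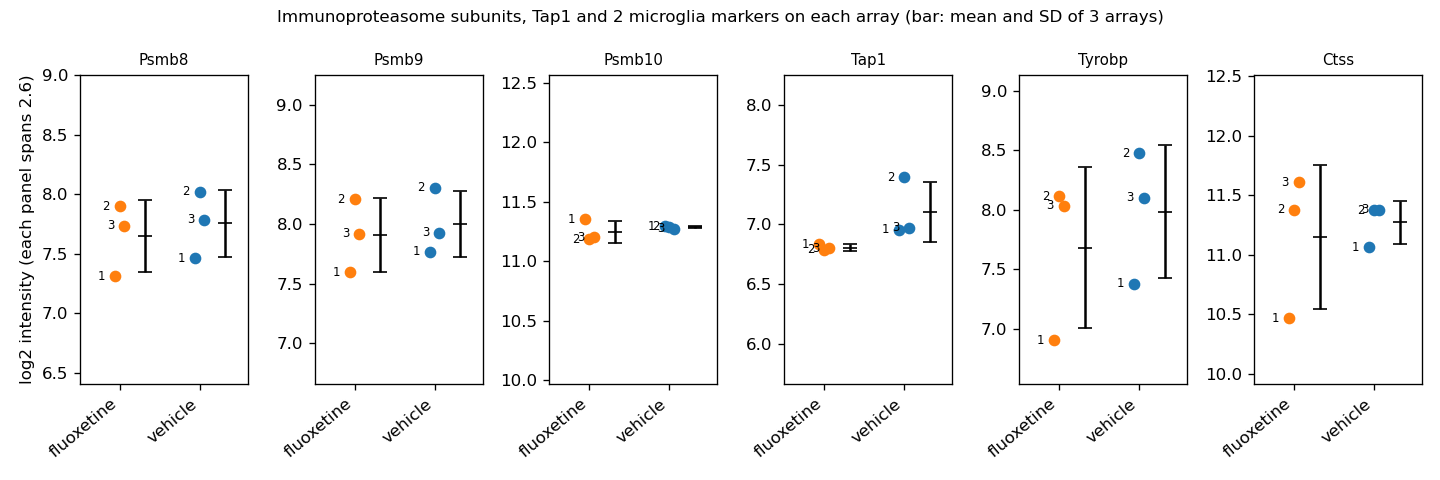
Log2 intensity of the immunoproteasome genes, of Tap1 and of the microglia markers Tyrobp and Ctss on each array, numbered by replicate, with the mean and SD of 3 arrays. Tyrobp and Ctss read lower with fluoxetine. Cx3cr1, Csf1r, C1qa and C1qb, the tested microglia markers not drawn, read higher with fluoxetine, by 0.21, 0.06, 0.24 and 0.18. Psmb8, Psmb9 and Tyrobp are lowest on fluoxetine 1 (7.31, 7.59 and 6.91) and highest on vehicle 2 (8.02, 8.30 and 8.48), and the fluoxetine and vehicle values of Tap1 do not overlap.

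The immunoproteasome makes peptides for class I antigen presentation, and the genes of that pathway had no common direction. Of 7 measured, 5 were higher and 2 lower with fluoxetine, with a median of 0.10, and 0 passed limma's test (0 at an unadjusted p under 0.05). Without fluoxetine 1 the median was −0.03 and 4 of the 7 were lower. Tap1, a subunit of the peptide transporter that lies beside Psmb9, read 6.83, 6.79 and 6.80 on the fluoxetine arrays, against 6.95, 7.40 and 6.97 on the vehicle arrays. Its groups did not overlap, as in 5.99% of all tested genes in that direction, and the difference was −0.30 ± 0.15 (SE, unadjusted p = 0.0789), or −0.16 without vehicle 2. B2m, the light chain of class I molecules, differed by 0.14 ± 0.13, and the interferon-induced factor Irf1 by −0.19 ± 0.12.

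The cap ATPases, which unfold the substrate, had differences between −0.06 and 0.05, 4 lower and 2 higher. Psmc6 measured 13.15, 13.23 and 13.23 on the fluoxetine arrays, against 13.29, 13.37 and 13.15 on the vehicle arrays, and vehicle 3 was the lowest of the 6, just under fluoxetine 1. Psmc5 read 13.11, 12.96 and 13.15 with fluoxetine and 13.14, 12.95 and 12.98 with vehicle. Both had limma unadjusted p of 0.583 or more, and the groups overlapped throughout.

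Among the cap non-ATPases, 10 of 11 were lower and 1 was higher, with differences from −0.11 to 0.10, but after either rescaling 3 of 11 were lower. Psmd4, a receptor for ubiquitin chains, read 13.56, 13.14 and 13.42 on the fluoxetine arrays, against 13.43, 13.46 and 13.48 on the vehicle arrays (difference −0.08 ± 0.14, SE). Its vehicle arrays were nearly equal while fluoxetine 2 stood low, and without that array the difference was 0.04. Psmd14, the enzyme that removes ubiquitin from the substrate, read 13.82, 13.51 and 13.81 with fluoxetine and 13.81, 13.82 and 13.54 with vehicle.

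That difference for Psmd14 was −0.01 ± 0.14, with 1 low array in each group. Psmd8, of the cap's lid, read 12.30, 11.89 and 11.92 on the fluoxetine arrays, against 12.08, 12.19 and 12.17 on the vehicle arrays (difference −0.11 ± 0.14). Fluoxetine 1 was the highest and the other fluoxetine arrays the lowest. Psmd11, another lid subunit, read 13.59, 13.44 and 13.57 with fluoxetine and 13.53, 13.70 and 13.58 with vehicle, a difference of −0.07 ± 0.11, with 1 of its 3 other tested probe sets on the other side of 0 (0.05). Psmd7, the partner of Psmd14, was the only one higher, by 0.10 ± 0.17, and vehicle 1 was its low array at 10.51, without which the difference was −0.07.

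The assembly factors of the cap are chaperones that help the ATPases join. All 3 were lower with fluoxetine on the deposited scale, and 2 of the 3 after either rescaling. Psmd10 measured 10.20, 10.36 and 10.01 on the fluoxetine arrays, against 10.37, 10.46 and 10.21 on the vehicle arrays (difference −0.16 ± 0.14, SE, unadjusted p = 0.273). Psmd9 read 9.36, 8.75 and 8.95 with fluoxetine and 9.16, 9.19 and 9.10 with vehicle, so that fluoxetine 1 was above and the other fluoxetine arrays below the vehicle range.

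The dimmer second tested probe set of Psmd9 differed by more, −0.49 ± 0.22 (SE, limma unadjusted p = 0.0585, adjusted p = 0.999), at 6.81, 6.26 and 6.77 on the fluoxetine arrays, against 6.72, 7.31 and 7.28 on the vehicle arrays. Vehicle 1 lay among the fluoxetine values there. Psmd5 differed by −0.02 ± 0.15, its fluoxetine arrays enclosing its vehicle arrays.

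The activators and the inhibitor went in no common direction. Psme1, a subunit of the interferon-induced activator, read 10.89, 11.08 and 10.75 on the fluoxetine arrays, against 10.88, 10.91 and 11.03 on the vehicle arrays (difference −0.04 ± 0.13, SE). Psme3, the related nuclear activator, read 11.56, 11.22 and 11.39 with fluoxetine and 11.25, 11.29 and 11.25 with vehicle. Fluoxetine 1 and 3 stood above all vehicle arrays and fluoxetine 2 below them, for a difference of 0.13 ± 0.12 (unadjusted p = 0.333).

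Psme4, a large nuclear activator, varied within both groups, at 9.90, 10.36 and 10.36 with fluoxetine and 10.50, 10.52 and 9.96 with vehicle. Each group had 1 low array, and the difference was −0.12 ± 0.20 with a 95% interval of −0.60 to 0.36. Its other tested probe sets differed by −0.42 and 0.04. Psmf1, which inhibits the core particle in the test tube, read 11.12, 11.14 and 11.27 with fluoxetine and 11.17, 11.20 and 11.17 with vehicle. It differed by −0.0033 ± 0.10 (interval −0.25 to 0.24), within a range of 0.14 over the 6 arrays. The 3 other tested probe sets of Psmf1 differed by −0.15, −0.36 and −0.0031.

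Among the genes that share only the start of the symbol, Psmc3ip had the largest difference of all 43 tested. It read 11.57, 10.46 and 11.27 on the fluoxetine arrays, against 9.32, 10.56 and 10.97 on the vehicle arrays (difference 0.81 ± 0.46, SE, limma unadjusted p = 0.118, adjusted p = 0.999). Vehicle 1 was far below the rest, and without it the difference was 0.33. A second probe set differed by 0.93 ± 0.41 in the same way. The related symbol Psme3ip1 differed by −0.12 ± 0.13.

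Probe sets below the level of 50 were not tested. Of 25 such probe sets of proteasome genes, 22 read higher with fluoxetine, against 72.6% of all 22711 probe sets below that level. For 12 of the 25 the groups did not overlap, all higher, against 36.4% of all probe sets below that level. Psmb11 was among them, at 3.33, 3.997 and 3.35 on the fluoxetine arrays, against 3.11, 3.29 and 3.28 on the vehicle arrays, while the groups of Psma8 overlapped.

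Genes that assist the proteasome were read from lists of named helpers, shuttles and regulators. Of 11 helper genes measured, 9 were lower with fluoxetine and 2 higher, with a median of −0.10, while 68.5% of all tested genes were lower. Among the helpers 0 passed limma's test (0 at an unadjusted p under 0.05). The smallest p were those of Psmg1 and Psmg3, chaperones of the alpha ring (differences −0.22 ± 0.14 and −0.19 ± 0.17, SE), and of Ecpas, which holds core and cap together (−0.12 ± 0.12). After either rescaling 8 of the 11 were lower, with medians of −0.03 (quantile) and −0.04 (median shift).

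The core's maturation factor Pomp and the cap-associated thioredoxin Txnl1, chosen after their values were seen, had groups that did not overlap, both lower by 0.10 in log2 as fluoxetine minus vehicle. Pomp read 13.06, 12.96 and 13.05 with fluoxetine and 13.09, 13.19 and 13.10 with vehicle. Txnl1 read 14.88, 14.82 and 14.66 with fluoxetine and 14.90, 14.89 and 14.88 with vehicle. Such groups were found in that direction for 5.99% of all tested genes, and neither gene passed.

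The factors that control proteasome genes did not pass either. All 5 measured genes of the Nfe2l1 list were lower on the deposited scale, with a median of −0.13, while 68.5% of all tested genes were lower. After either rescaling 4 of 5 were lower, with medians of −0.05 (quantile) and −0.07 (median shift). Nfe2l1 read 10.43, 10.31 and 10.38 on the fluoxetine arrays, against 10.39, 10.61 and 10.78 on the vehicle arrays, a difference of −0.22 ± 0.13 (SE, unadjusted p = 0.137). Vehicle 1 lay among the fluoxetine values. The related Nfe2l2, a factor of the oxidative stress response, differed by −0.22 ± 0.17, and its partner Mafg by −0.13 ± 0.12.

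Proteins that carry ubiquitin-tagged substrates to the proteasome had 4 of 7 genes lower, or 3 of 7 after either rescaling. The shuttles Rad23b and Ubqln2 differed by 0.20 ± 0.12 and 0.14 ± 0.12 (SE), the second by −0.21 with its probe sets averaged. Ufd1, which works with an unfolding ATPase upstream of the proteasome, differed by −0.11 ± 0.11, or by 0.0237 with its probe sets averaged. Its groups did not overlap, as in 5.99% of all tested genes in that direction. Uba6, a ubiquitin-activating enzyme and the only gene of its list with a probe set of its own, had the smallest p of the helpers, shuttles and regulators. It read 8.03, 8.47 and 8.27 on the fluoxetine arrays, against 8.68, 8.83 and 8.40 on the vehicle arrays, a difference of −0.38 ± 0.17 (unadjusted p = 0.0553, limma adjusted p = 0.999). Fluoxetine 2 lay above vehicle 3.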

How the data were processed

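The authors deposited an intensity on a linear scale for each probe set and array. It came out of GCRMA, whose version was not given in the sources used here, per the submitters' processing notes. This normalization compresses dim probe sets and can remove a change common to most genes, and the number of arrays limits the precision. Per the labels, 15 ng of RNA went through 2 rounds of amplification.

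The 45101 probe sets less 64 controls were taken to log2 with no offset. Probe sets with a geometric mean of at least 50 over the 6 arrays were tested (22326, 49.6%) in limma 3.58.1 under R 4.3.3 (fluoxetine minus vehicle, two-sided, Benjamini-Hochberg over all tested probe sets, threshold 0.05). The fit was tested on simulated data. Gene names came from the platform annotation: 34945 probe sets had 1 symbol, 932 several and 9160 none. RefSeq promoter windows (GRCm38.p6) were matched by symbol.

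The members and lists were chosen with earlier results of these data known. Arrays were shown in full for the 2 genes of each class with the smallest p, the immunoproteasome genes, activators and inhibitor, the catalytic subunits, Psmd4 and Psmd14. Up to 3 genes of each other list were named by smallest p. Other genes named by value were chosen after their values were seen, among them Psmd7, Psmc3ip, Gfap and the microglia markers. Alternatives were no filter, a minimum of 100, a level of 50 in both groups, an offset of 16, quantile normalization, a median shift, the replicate block, trend and robust variances, array weights, probe sets specific to 1 gene, a gene's averaged probe sets, omission of single arrays and 0.10 as the threshold.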

Additional observations from a re-analysis of the deposited data

How the results depend on the processing

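No probe set and no proteasome gene passed in any of the alternatives run, the replicate block included (0 probe sets, and 0 genes), nor at a threshold of 0.10 or without any array (0 to 0), and the smallest adjusted p of a named gene was 0.742. The count of members lower with fluoxetine was 16 after quantile normalization, 14 after the median shift and 18 to 32 without single arrays. With the replicate block it was 32 by design, because each number holds 1 array of each group and the block cannot change a difference. Arrays of the same number did not deviate together (correlations −0.25, −0.03 and −0.50), and those of different numbers gave −0.27 to 0.43. With 3 arrays a group, these correlations cannot settle whether the samples were paired. The alpha ring median was 0.0419 after quantile normalization, 0.0260 after the median shift and −0.0705 to 0.0161 without single arrays. The activator median was 0.0545 after quantile normalization. Without single arrays the other class medians ranged over −0.10 to 0.04 (beta ring), −0.06 to 0.02 (cap ATPases), −0.10 to 0.04 (cap non-ATPases), −0.165 to 0.0049 (assembly factors), −0.05 to 0.03 (activators) and −0.23 to 0.06 (immunoproteasome). The cause of these shifts was not tested.

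Among the 42 named genes, signs turned for Psmb5 (0.0109), Psmb10 (0.0215), Psmd5 (0.0448), Psmd14 (0.0520), Psme1 (0.0241) and Psmf1 (0.0571) after the median shift. After quantile normalization they turned for Psmb10 (0.0393), Psmd5 (0.0620), Psmd14 (0.0492), Psme1 (0.0360) and Psmf1 (0.0730). They also turned for Psmf1 (0.0242) and Ctss (0.0564) with array weights and for Psme4 (0.0432) with specific probe sets. With a gene's probe sets averaged they turned for Ubqln2 (−0.21) and Ufd1 (0.0237). Without single arrays, Psmb5 ranged from −0.104 to 0.0384, Psmb6 from −0.0524 to 0.116, Psmb8 from −0.255 to 0.0607 and Psmb9 from −0.242 to 0.0650. Psmd4 ranged from −0.176 to 0.0366, Psmd5 from −0.141 to 0.101, Psmd7 from −0.0734 to 0.202, Psmd9 from −0.302 to 0.0049 and Psmd14 from −0.0988 to 0.0938. Psme1 ranged from −0.121 to 0.0429, Psme4 from −0.304 to 0.0336, Psmf1 from −0.0473 to 0.0239, Ctss from −0.349 to 0.222 and Tyrobp from −0.604 to 0.0883. The class I list median ranged from −0.0268 to 0.152. In all, 39 of 705 recomputed differences of 42 named genes had the other sign. That total includes alternatives that cannot turn a sign. The changed filters, the replicate block and the trend and robust variances leave each difference as it was.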
